A study of Mus musculus with 4 samples.

Results

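AP-1 is a family of transcription factor dimers built from Fos and Jun proteins, joined here by Atf3 and Batf, which carry the same basic leucine zipper (bZIP) domain. The 9 genes described are Fos, Fosb, Fosl1, Fosl2, Jun, Junb, Jund, Atf3 and Batf. They were chosen by symbol as a gene family and matched through their NCBI gene identifiers. They make up 9 of the 15935 genes listed in any library, and all 9 were listed in every library. RNA-seq was run on macrophages that had been grown from C57BL/6 mouse bone marrow in M-CSF, the growth factor of this lineage. Donor mice were either wild type (WT) or carried floxed Ezh2 alleles with a Cre recombinase under the lysozyme M promoter, which is active in myeloid cells (KO). Ezh2 is the main methyltransferase of Polycomb repressive complex PRC2, which marks histone H3 at lysine 27. Cells of each genotype received no treatment (NT) or 2 h of lipopolysaccharide (LPS), a bacterial product that Toll-like receptor 4 senses.

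The design thus has 4 groups, called by genotype and state (WT NT, KO LPS and so on), and 1 library in each. Without replicates no p-value is given, and no difference described here was checked against the spread between cultures. The labels do not say how many mice gave marrow, nor whether NT and LPS cells of a genotype shared a culture. Levels are FPKM, the deposited value per length of the gene and depth of the library, which allows levels of different genes to be set side by side. Ratios of FPKM carry exact 95% intervals from the expected counts (the estimated reads of a gene). These intervals cover counting error only. PCR copies are not independent molecules, so the intervals may be too narrow even for that. A gene was called higher or lower where log2 of (FPKM + 1) over (FPKM + 1) reached 2-fold, among genes of at least 1 FPKM in 1 or both of the libraries compared. That scale understates the folds of low genes.

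Total expected counts lay between 5237782 and 5678451 per library. The targeted gene Ezh2 was low throughout, with 43 and 38 expected counts in WT (NT and LPS) and 31 and 18 in KO. Its KO over WT ratio was 0.725 without LPS (0.442 to 1.18) and 0.512 with LPS (0.275 to 0.919), so the resting libraries did not differ beyond counting error. The deposited value pools all exons, and which exons the Cre removes is not given in the labels. All 10 macrophage markers were listed in every library and summed to between 3509 and 4042 FPKM, although Lyz2, the gene whose promoter drives the Cre, stood at only 11.6 to 22.4 FPKM. Of 10 neutrophil markers, 9 or 10 were listed per library. They summed to 380 and 412 FPKM in WT (NT and LPS) and to 648 and 562 FPKM in KO, while Ly6g was not listed in KO NT. Stromal markers summed to at most 7.07 FPKM, B and T cell markers to at most 4.10, and dendritic cell markers to at most 3.95. In RNA from a whole culture, fewer cells of a type and less RNA per cell cannot be told apart.

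Fos proteins cannot pair with each other and bind DNA as partners of Jun proteins, whereas Jun proteins also pair among themselves. In macrophages, Toll-like receptor signals reach these genes through MAP kinases. Fos and Jun are immediate early genes, whose transcripts appear within minutes of a stimulus and decay fast. Fosl1 and Fosl2 follow more slowly, and Jund is expressed steadily in many cells. Fos and Fosb carry strong activation domains that Fosl1 and Fosl2 lack. Junb is often a weaker activator than Jun. Atf3 is a stress- and LPS-induced factor known as a repressor of cytokine genes in macrophages. Batf has no activation domain of its own and pairs with Jun proteins, often beside interferon regulatory factors.

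The upstream sequence is shown for 4 genes that carry the main contrasts below: Fos and Jun, which were lower with LPS, and Fosl2 and Atf3, which after LPS had the highest and the lowest KO over WT log2 fold of the 8 genes that passed the filter. Each is the 250 bases before the RefSeq transcription start (GRCm38.p6, the assembly that mm10 denotes), written 5′ to 3′ on the strand of the gene. The windows are chr12:85473640-85473889 on the plus strand for Fos, chr4:95052223-95052472 on the minus strand for Jun, chr5:32136222-32136471 on the plus strand for Fosl2 and chr1:191183334-191183583 on the minus strand for Atf3. Capitals mark motif matches named after the sequences.
Fos: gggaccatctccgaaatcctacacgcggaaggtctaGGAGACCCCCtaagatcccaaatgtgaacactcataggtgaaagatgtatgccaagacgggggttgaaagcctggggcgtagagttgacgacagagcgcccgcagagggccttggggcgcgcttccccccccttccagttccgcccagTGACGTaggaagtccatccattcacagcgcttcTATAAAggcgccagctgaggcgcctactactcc
Jun: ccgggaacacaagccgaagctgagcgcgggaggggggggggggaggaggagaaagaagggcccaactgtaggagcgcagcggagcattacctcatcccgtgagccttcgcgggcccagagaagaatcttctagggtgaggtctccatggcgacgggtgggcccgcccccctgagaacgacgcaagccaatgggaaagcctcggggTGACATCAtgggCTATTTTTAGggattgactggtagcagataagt
Fosl2: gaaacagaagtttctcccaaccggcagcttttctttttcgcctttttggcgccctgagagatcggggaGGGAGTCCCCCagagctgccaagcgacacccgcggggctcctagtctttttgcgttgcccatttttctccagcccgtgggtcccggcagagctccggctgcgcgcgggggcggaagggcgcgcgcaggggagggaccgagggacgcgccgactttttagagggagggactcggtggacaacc
Atf3: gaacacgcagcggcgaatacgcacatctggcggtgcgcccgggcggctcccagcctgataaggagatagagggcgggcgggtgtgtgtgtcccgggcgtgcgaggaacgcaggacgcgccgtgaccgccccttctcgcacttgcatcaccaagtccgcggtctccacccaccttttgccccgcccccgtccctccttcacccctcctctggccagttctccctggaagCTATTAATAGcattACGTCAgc

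Of the 9 genes, 8 had an upstream entry in RefSeq's table, Fosl1 being the exception. Both strands were searched for 8 motifs in these 8 windows and in 32851 windows of the same length. The AP-1 element TGANTCA (the TRE) was in 0 of the 8 windows and in 6.75% of all windows. The full cAMP response element TGACGTCA (the CRE), bound by ATF and CREB factors, was in 0 of 8 and in 1.55% of all. Its shorter core TGACGT, which every full CRE also contains, was in 3 of 8 and in 6.47% of all. In Fos it lay 66 to 61 bases before the start, in Batf 98 to 93 bases, and in Atf3 8 to 3 bases on the reverse strand. The sequence TGACATCA, a variant AP-1 element, was in Jun at 45 to 38 bases before the start and in 2.93% of all windows. TATAAA was in Fos at 33 to 28 bases and in 12.4% of all windows. A MEF2 site was in Jun (33 to 24 bases) and Atf3 (22 to 13 bases), against 2.92% of all windows. An NF-kB site, the element of the other main factor that LPS activates, was in 3 of 8 windows and in 7.25% of all: Fos at 214 to 205 bases, Fosb at 188 to 179 and Fosl2 at 182 to 172, where 2 matches overlap. The CArG box of serum response factor was in 0 of 8 windows and in 1.47% of all. The Fosb window (chr7:19310046-19310295, minus strand) overlaps the Fosb gene span, chr7:19302696-19310118. Its positions are therefore counted from a start inside that span. The windows of Junb and Jund held none of the motifs. The deposited length of Jund was 2894 bases, whereas exons of the GENCODE M21 annotation covered 1668 bases of its RefSeq span. Whether the annotations place its start alike was not checked. A match is a match of letters only, and a window without one says nothing of more distant sequence.

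Among the Fos genes in WT macrophages, LPS went with less Fos and more Fosl2 and Fosl1. Fos (gene ID 14281, chr12:85473890-85477274, 4 exons), the prototype of the family, stood at 39.9 FPKM (477 expected counts) in WT NT and 11.5 FPKM (137) in WT LPS. In the KO libraries it stood at 62.2 FPKM (742) without LPS and 7.8 FPKM (86) with LPS. Both LPS libraries were thus lower than both NT libraries. The KO had the highest and the lowest value of the 4. Fos was 3.46-fold lower with LPS in WT (interval 2.85 to 4.21, log2 fold -1.71). In KO it was 7.97-fold lower (6.37 to 10.1, log2 fold -2.84), and 0.298% of the genes tested there had a lower fold.

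Fosl2 (gene ID 14284, chr5:32136472-32157840, 4 exons) encodes Fra-2, a Fos relative without the strong activation domain. It stood at 6.58 FPKM (222 expected counts) in WT NT, 23.4 FPKM (783) in WT LPS, 6.11 FPKM (206) in KO NT and 56.1 FPKM (1748) in KO LPS. The NT libraries lay close together and both LPS libraries were far above them, KO LPS the higher. The ratio of LPS to NT was 3.55 in WT (3.05 to 4.14, log2 fold 1.68) and 9.19 in KO (7.95 to 10.7, log2 fold 3.01).

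Fosl1 (gene ID 14283, chr19:5447698-5455938, 4 exons), which encodes Fra-1, was scarce. It had 5 expected counts in each NT library (0.52 FPKM), 33 in WT LPS (3.45 FPKM) and 21 in KO LPS (2.36 FPKM). Its LPS ratio was 6.65 in WT (2.58 to 21.8) and 4.55 in KO (1.67 to 15.4), wide intervals that reflect the few reads. In the GENCODE M21 annotation 1155 of its 1874 exon bases are shared with Ccdc85b on the opposite strand, and whether the counting used strand is not given in the sources used here. Reads of the overlap cannot then be assigned with certainty. Ccdc85b itself went from 76.2 to 60.5 expected counts with LPS in WT and from 77.4 to 47.2 in KO. Its part in the counts of Fosl1 was not tested. Fosb (gene ID 14282, chr7:19302696-19310118, 4 exons), a close relative of Fos with a strong activation domain, had between 2 and 5 expected counts per library, or 0.09 to 0.23 FPKM. It did not reach 1 FPKM in any library, and no difference in it was detectable at this depth.

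**Figure D1:**
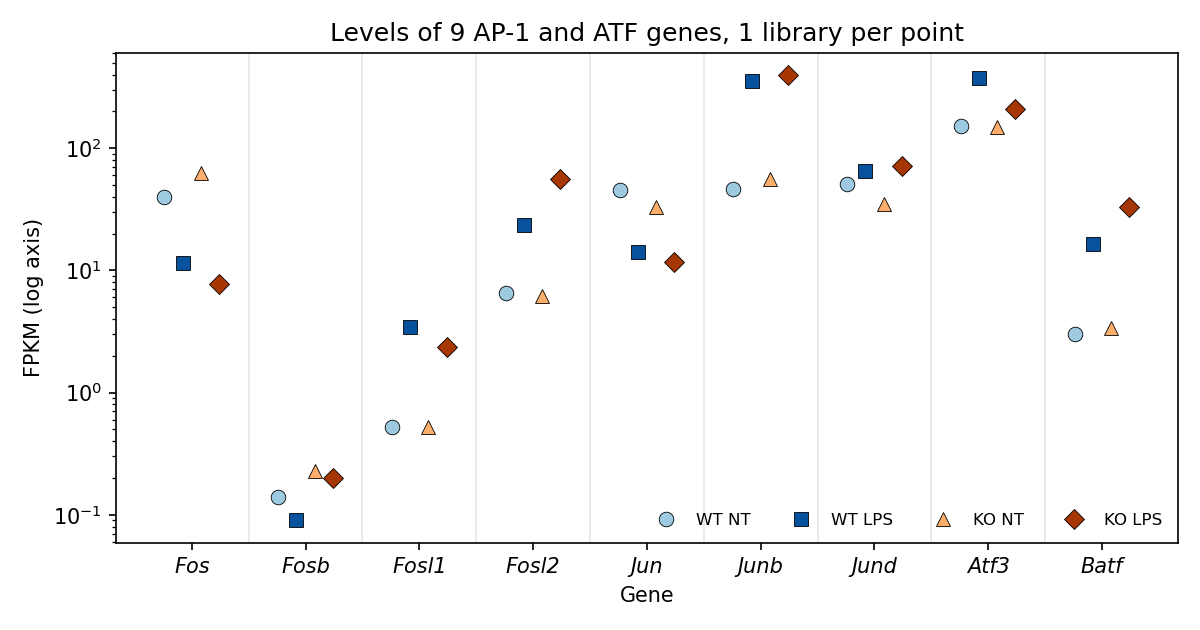
FPKM of each of the 9 genes on a log axis, 1 point per library (circle WT NT, square WT LPS, triangle KO NT, diamond KO LPS). Fos and Jun are lower in both LPS libraries, Fosl1, Fosl2, Junb, Jund, Atf3 and Batf are higher in both, and Fosb stays under 1 FPKM in all 4.

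Among the Jun genes, Jun was lower and Junb higher with LPS in both genotypes. Jun (gene ID 16476, chr4:95049036-95052222, 1 exon), the founding Jun gene, stood at 45.5 FPKM (827 expected counts) in WT NT, 14.2 FPKM (256) in WT LPS, 32.9 FPKM (597) in KO NT and 11.6 FPKM (195) in KO LPS. It was 3.21-fold lower with LPS in WT (2.78 to 3.70, log2 fold -1.61), and its LPS over NT ratio in KO was 0.353 (0.299 to 0.416, log2 fold -1.42). Both LPS libraries lay under both NT libraries, and KO lay under WT in each state.

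Junb (gene ID 16477, chr8:84976909-84978748, 1 exon) stood at 46.6 FPKM (485 expected counts) in WT NT, 352 FPKM (3640) in WT LPS, 55.4 FPKM (576) in KO NT and 395 FPKM (3793) in KO LPS. Its LPS ratio was 7.56 in WT (6.87 to 8.33, log2 fold 2.89), above 98.5% of the genes tested, and 7.13 in KO (6.53 to 7.79, log2 fold 2.81). The LPS libraries were far above the NT libraries and the genotypes were close together in each state. Jund (gene ID 16478, chr8:70697739-70700616, 1 exon), the steadily expressed member, stood at 50.8 FPKM (838) in WT NT, 65.2 FPKM (1068) in WT LPS, 35.2 FPKM (580) in KO NT and 72.0 FPKM (1095) in KO LPS. The KO had the lowest and the highest value. The LPS ratio of Jund was 1.28 in WT (1.17 to 1.41) and 2.04 in KO (1.85 to 2.26, log2 fold 1.01), the second just past 2-fold. Antisense genes share 232 of 3187 exon bases with Jun (Junos) and 877 of 1668 with Jund (Gm11175), and neither antisense gene was listed in any library.

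Atf3 (gene ID 11910, chr1:191170296-191183333, 4 exons) was the most abundant of the 9 transcripts in 3 of the 4 libraries. It stood at 152 FPKM (1710 expected counts) in WT NT, 373 FPKM (4161) in WT LPS, 148 FPKM (1663) in KO NT and 209 FPKM (2164) in KO LPS. The NT libraries did not differ beyond counting error, and the LPS libraries were both higher, WT LPS by more. The LPS ratio was 2.45 in WT (2.32 to 2.59, log2 fold 1.29) and 1.41 in KO (1.32 to 1.5, log2 fold 0.49), the KO value short of 2-fold. Batf (gene ID 53314, chr12:85686720-85709087, 3 exons) stood at 2.99 FPKM (15) in WT NT, 16.5 FPKM (82) in WT LPS, 3.4 FPKM (17) in KO NT and 33.1 FPKM (153) in KO LPS. Its order over the libraries was that of Fosl2 among the LPS libraries, with KO LPS highest. The LPS ratio of Batf was 5.51 in WT (3.15 to 10.3, log2 fold 2.13) and 9.74 in KO (5.89 to 17.2, log2 fold 2.95).

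In all, LPS in WT left 8 of the 9 genes past the filter. Of these, 5 were called higher (Fosl1, Fosl2, Junb, Atf3 and Batf), where 6.41% of the 10972 genes tested were called higher, and 2 were called lower (Fos and Jun), where 17.2% were. In KO the filter again passed 8 genes. There 5 were called higher (Fosl1, Fosl2, Junb, Jund and Batf) against 6.61% of 11069 genes, and 2 lower (Fos and Jun) against 15.1%. The median log2 fold of the genes that passed was 1.42 in WT and 1.08 in KO, and that of all genes tested was -0.46 and -0.42. Rescaling the libraries by their median ratio moved the median of all genes to -0.04 in both genotypes. Under that scaling Fos and Jun stayed lower with LPS, with log2 folds of -1.25 and -1.16 in WT and -2.44 and -1.02 in KO. Both comparisons rest on separate pairs of libraries.

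**Figure D2:**
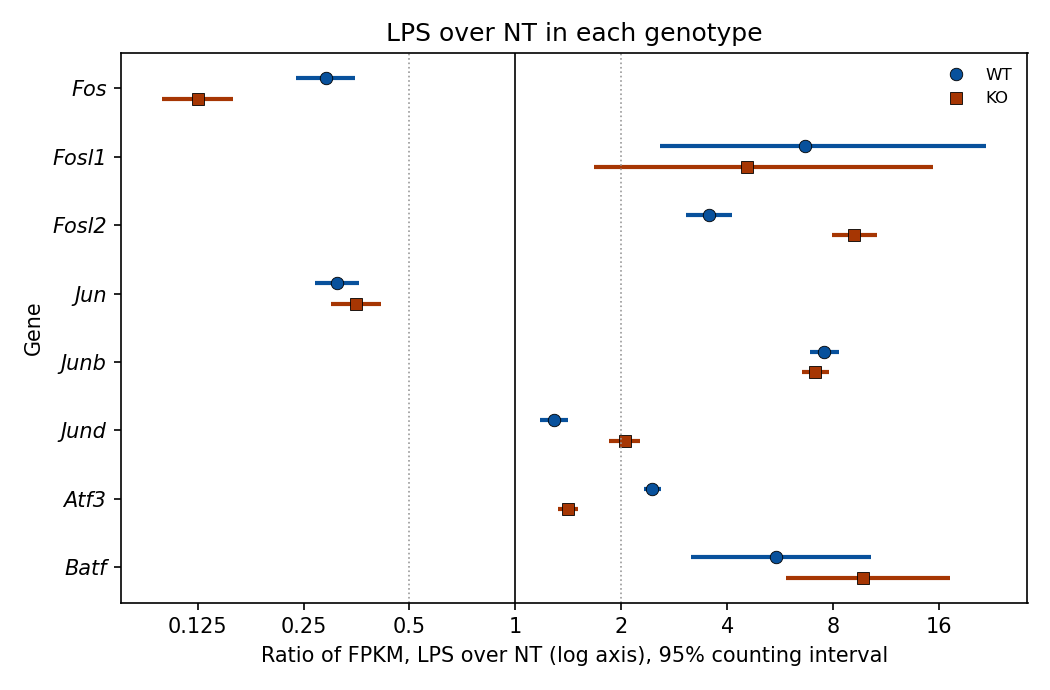
Ratio of FPKM with LPS to FPKM without, on a log axis, for 8 of the genes (Fosb, with at most 5 counts, is left out), circles for WT and squares for KO. Bars are 95% intervals for counting error; dotted lines mark 2-fold. The intervals of WT and KO do not overlap for Fos, Fosl2, Jund and Atf3.

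Without LPS, the genotypes differed in the 9 genes by less than 2-fold. Of the 7 that passed the filter, 0 were called higher in KO (0.928% of 10990 genes tested were) and 0 lower (0.883% were). The interval left out 1 for 4 of them. Fos was higher in KO, with a ratio of 1.56 (1.39 to 1.75, log2 fold 0.63), and Junb was slightly higher at 1.19 (1.05 to 1.35). Jun was lower at 0.723 (0.650 to 0.804, log2 fold -0.46) and Jund lower at 0.693 (0.623 to 0.772, log2 fold -0.52). The interval included 1 for Fosl2 (0.929, 0.764 to 1.13), Atf3 (0.974, 0.910 to 1.04) and Batf (1.14, 0.533 to 2.44). The median log2 fold of the 7 was -0.04, beside 0.02 for all genes tested.

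With LPS, Fosl2 and Batf were more abundant in KO and Atf3 and Fos less so. Of the 8 genes that passed, 1 was called higher in KO, where 1.45% of 10375 genes tested were, and 0 were called lower, where 1.12% were. The gene called was Fosl2, with a ratio of 2.40 (2.21 to 2.62, log2 fold 1.23), above 99.1% of the genes tested. Batf had a ratio of 2.01 (1.53 to 2.66) but a log2 fold of 0.96 on the scale with 1 FPKM added, just short of the call. With 0.1 FPKM added in its place Batf was called too. Atf3 was lower in KO, with a ratio of 0.560 (0.531 to 0.590, log2 fold -0.83), and 1.63% of the genes tested had a lower fold. Fos was lower at 0.676 (0.510 to 0.892, log2 fold -0.51) and Jun at 0.819 (0.677 to 0.991, log2 fold -0.27). Junb and Jund lay near 1. Junb had 1.12 (1.07 to 1.17) and Jund 1.10 (1.01 to 1.20), the latter 1.05 (0.966 to 1.15) after median-ratio scaling. Fosl1 had 0.684, with an interval of 0.376 to 1.22 that includes 1 at its few reads. The median log2 fold of the 8 was -0.06, beside 0.08 for all genes tested.

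The neutrophil markers moved with genotype in both states. Of those that passed the filter, 8 of 9 had a log2 fold above 0 for KO over WT in the resting cells (median 0.60) and 9 of 10 with LPS (median 0.31). The medians of all genes tested were 0.02 and 0.08. None of these markers was past 2-fold, where 0.928% of all genes were called higher without LPS and 1.45% with LPS. Of the 10 macrophage markers, 8 were above 0 without LPS (median 0.16) and 5 with LPS (median 0.09). S100a8, for example, stood at 122 and 127 FPKM in WT (NT and LPS) and at 219 and 176 FPKM in KO, and Ly6g at no more than 1.18 FPKM in any library. Fibroblast and stromal markers summed to 6.65 and 7.07 FPKM in WT and to 3.69 and 3.59 FPKM in KO. Their part in the genotype differences of the 9 genes was not tested.

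**Figure D3:**
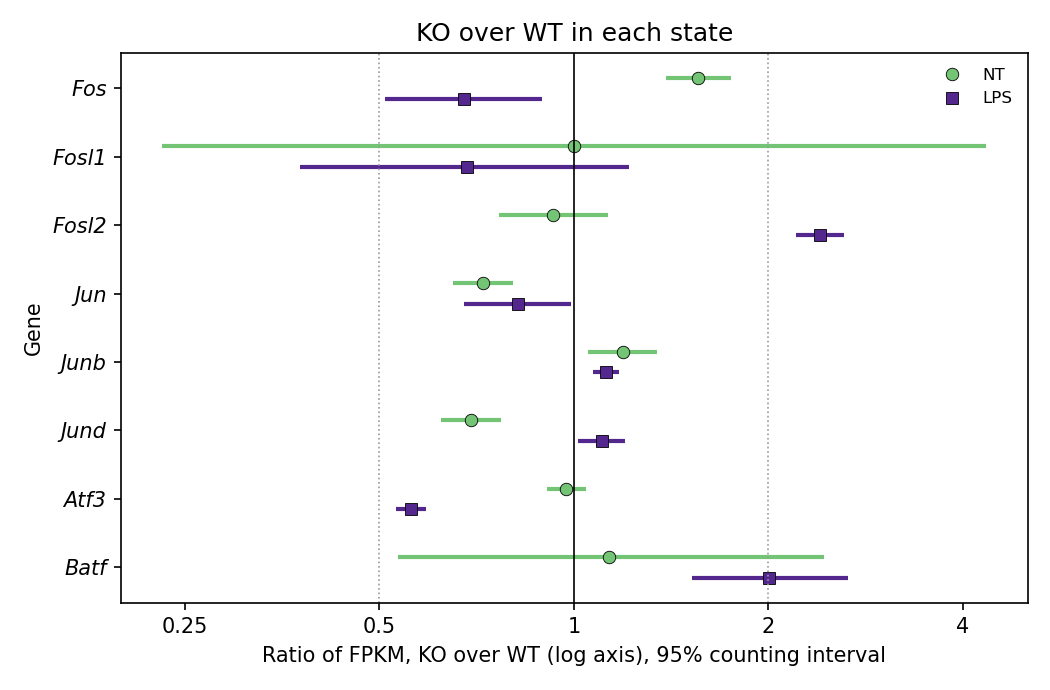
Ratio of FPKM in KO to FPKM in WT, on a log axis, for the same 8 genes, circles without LPS and squares with LPS. Bars are 95% intervals for counting error; dotted lines mark 2-fold. Fos lies above 1 without LPS and below it with LPS, Jund the reverse by a smaller margin, and Fosl2 and Batf with LPS lie past 2.

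The design crosses genotype with LPS, so each LPS ratio in KO can be divided by that in WT. For Fosl2 the KO response was 2.59 times the WT response (2.10 to 3.18). The Fos quotient was 0.434 (0.324 to 0.582), a decrease with LPS that was 2.30-fold deeper in KO. These were the 2 genes past 2-fold. Atf3 had 0.575 (0.528 to 0.626) and Jund 1.59 (1.39 to 1.82), both apart from 1 beyond counting error. The interval included 1 for Batf (1.77, 0.839 to 3.72), Jun (1.13, 0.915 to 1.40), Junb (0.943, 0.829 to 1.07) and Fosl1 (0.684, 0.176 to 2.65). For Batf and Fosl1 the intervals also include 1.5-fold differences, so a like response in both genotypes is not shown. The quotient of Fos combines a higher resting level and a lower LPS level in KO, whereas those of Fosl2 and Atf3 come from LPS libraries that differ while the NT libraries lay close together.

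As shares of the summed FPKM of the 4 Fos genes, Fos gave way to Fosl2. Fos made up 84.6% of the sum in WT NT (82.4 to 86.7) and 30.0% in WT LPS (26.3 to 34.0), while Fosl2 made up 13.96% (12.2 to 15.97) and 60.8% (56.8 to 64.6). In KO the shift was from 90.1% Fos (88.6 to 91.4) and 8.85% Fosl2 (7.68 to 10.2) to 11.7% Fos (9.67 to 14.2) and 84.4% Fosl2 (81.7 to 86.8). The sum itself went from 47.2 to 38.4 FPKM with LPS in WT and from 69.0 to 66.5 FPKM in KO. These sums are unscaled, and the median log2 fold of all genes tested was -0.46 in WT and -0.42 in KO. The direction of the change in the sum therefore depends on scaling, whereas the shares do not. The intervals of the WT LPS and KO LPS shares do not overlap for either gene.

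The 3 Jun genes were near parity in WT NT, with 31.8% Jun, 32.6% Junb and 35.6% Jund. In KO NT, Junb already led with 44.9% (42.4 to 47.3), beside 26.6% Jun (24.7 to 28.6) and 28.5% Jund (26.5 to 30.6). With LPS, Junb made up 81.6% of the sum in WT (80.6 to 82.5) and 82.5% in KO (81.6 to 83.4), and Jun 3.29% and 2.43%. The sum went from 143 to 432 FPKM with LPS in WT and from 124 to 479 FPKM in KO. Junb was thus the main Jun transcript after LPS in both genotypes, by nearly the same share. Atf3 made up 44.1%, 43.4% and 43.1% of the summed FPKM of all 9 genes in WT NT, WT LPS and KO NT, but 26.6% in KO LPS. These shares describe transcripts and not dimers or protein.

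**Figure D4:**
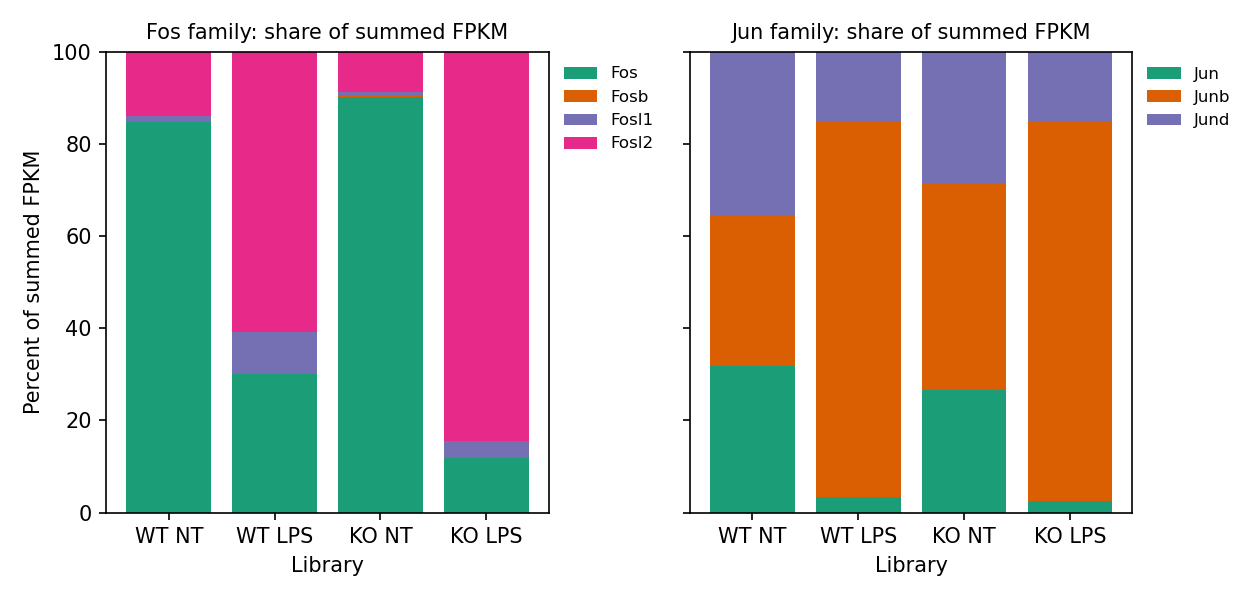
Share of the summed FPKM of the Fos family (left) and the Jun family (right) taken by each gene, in percent, in the 4 libraries. Fos takes most of the left bars without LPS (84.6% and 90.1%) and Fosl2 with LPS (60.8% and 84.4%); Junb takes over 80% of both right bars with LPS.

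Ordered by FPKM, WT NT ran from Atf3 through Jund, Junb, Jun, Fos, Fosl2, Batf and Fosl1 to Fosb. There the neighbours Jund and Junb, Junb and Jun, and Fosl1 and Fosb did not differ beyond counting error. Atf3 led by a wide margin, the ratio to Jund being 2.999 (2.76 to 3.26). In WT LPS the order was Atf3, Junb, Jund, Fosl2, Batf, Jun, Fos, Fosl1 and Fosb, and the neighbours Batf and Jun, and Jun and Fos, did not differ beyond counting error. KO NT had Fos in the second place, 1.12 times Junb (1.005 to 1.25), followed by Jund, Jun, Fosl2, Batf, Fosl1 and Fosb, with Jund and Jun, and Fosl1 and Fosb, not apart. In KO LPS, Junb came first at 1.89 times Atf3 (1.79 to 1.99), followed by Jund, Fosl2, Batf, Jun, Fos, Fosl1 and Fosb. Every neighbour there differed beyond counting error. Fos thus went from the second to the seventh place in KO and from the fifth to the seventh in WT.

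Genes with the most similar profile were found as the smallest distance between centred log2(FPKM + 1) values over the 4 libraries. A minimum of 50 expected counts in 1 library was set for a gene to enter as a neighbour. Fosb and Fosl1 did not reach it themselves and were compared all the same. With 4 libraries this is a description. The distance is not scaled by the size of the change, so the number of neighbours also depends on how large a gene's folds are. The gene nearest to Fosl2 was Ccl24, a chemokine (distance 0.30), then Batf (0.32) and Sema4c (0.34), and only 7 of 9217 genes lay within 0.5. Those nearest to Batf were Bcor, Ccl24 and Tpbg, with 19 genes within 0.5. Fos also had few neighbours, 18 within 0.5, the nearest being Tmem126b (14.6 to 4.29 FPKM with LPS in WT, 18.7 to 2.42 in KO), Gm15441 and Tab1. By contrast, Jun had 340 genes within 0.5 (nearest Hyal1, Kif21b and Jmjd4) and Jund 385 (nearest Myadm, Chd7 and Pfkp). Junb had 63, led by Srgn (46.1 to 349 FPKM with LPS in WT, 55.6 to 402 in KO), then Sgms1 and Prdm1. Atf3 had 83, led by Tnfsf10, Ppm1k and Bmp2. Fosl1 had 153, led by Phtf1os, Sav1 and Otud1. The profile of Fosb had 3695, led by Siah1a, Pex3 and Utp11. With 1 FPKM added, levels of 0.09 to 0.23 FPKM give a flat profile, so these neighbours say nothing of Fosb.

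Other bZIP factors, the possible partners and competitors of AP-1, were followed in 3 lists. Of all genes tested with LPS, 6.41% were called higher and 17.2% lower in WT, and 6.61% and 15.1% in KO. In KO against WT with LPS, 1.45% were called higher and 1.12% lower. Of 15 ATF and CREB relatives, all past the filter, 2 were called higher with LPS in WT and 1 lower, and in KO 3 higher and 0 lower. Jdp2, a repressor that pairs with Jun, went from 6.83 to 164 FPKM with LPS in WT and from 6.15 to 223 FPKM in KO, which is 24.1-fold (18.7 to 31.5) and 36.2-fold (27.8 to 48.1). Batf2, a relative of Batf, was lower in KO in both states. Batf was higher in KO with LPS and did not differ beyond counting error without LPS. Batf2 went from 7.69 to 35.5 FPKM with LPS in WT and from 3.35 to 16.7 FPKM in KO. The KO over WT ratio of Batf2 was 0.436 without LPS and 0.470 with LPS (0.377 to 0.582). Creb5 was called in KO and not in WT (log2 folds 1.93 and 0.93), and that difference was not tested. Batf3, the gene called lower in WT, had 12 and 3 expected counts there and 14 and 11 in KO, which also made it the 1 relative called higher in KO with LPS. Atf7 and Atf1 had the lowest WT ratios among genes of at least 50 counts, 0.626 and 0.639. Their log2 folds of -0.61 and -0.62 lay near the median of all genes tested, -0.46.

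Of 10 Maf and CNC factors, 8 passed the filter for LPS in WT and 2 were called higher. In KO 9 passed and 1 was called higher. Over all genes tested, 6.41% were called higher and 17.2% lower in WT, and 6.61% and 15.1% in KO. Maff, a small Maf protein without an activation domain, went from 1.34 to 102 FPKM with LPS in WT and from 1.54 to 96.6 FPKM in KO. Mafk, another small Maf, went from 14.5 to 44.1 FPKM in WT and from 11.0 to 19.5 FPKM in KO, and its KO over WT ratio with LPS was 0.442 (0.384 to 0.507). Mafg, also a small Maf, had LPS ratios of 0.671 in WT and 0.796 in KO. Its log2 folds of -0.55 and -0.31 lay near the medians of all genes tested, -0.46 and -0.42. In the list of 11 C/EBP and other bZIP factors, 3 were called higher and 3 lower in each genotype, of 10 that passed in WT and 9 in KO. Besides Cebpb (higher) and Tef (lower), Nfil3 (14.5-fold in WT, 29.0-fold in KO) and Cebpd (8.26-fold and 9.02-fold) were higher, and Cebpa (ratios 0.0682 and 0.0593) and Dbp (0.180 and 0.199) lower. No gene of this last list was called between genotypes, where at most 1.45% of all genes were called in either direction.

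Upstream of AP-1, 26 of 27 genes of the MAP kinase routes passed the filter. With LPS, 3 were called higher (Map3k8, Mapkapk2 and Rps6ka5) and 3 lower (Map3k1, Tab1 and Rps6ka1) in each genotype. The shares of all genes tested were 6.41% higher and 17.2% lower in WT, and 6.61% and 15.1% in KO. Map3k8, the kinase that links Toll-like receptor signals to ERK, was 4.11-fold higher in WT (3.48 to 4.88) and 4.71-fold in KO. Mapkapk2, a kinase under p38, was 3.94-fold and 3.75-fold higher. Map3k1 had ratios of 0.152 and 0.173, and Tab1, a partner of the kinase TAK1, 0.173 and 0.107. With LPS, 22 of the 26 were above 0 in KO against WT, but their median log2 fold was 0.13 beside 0.08 for all genes. Of the 26, 0 were called, where 1.45% of all genes were called higher and 1.12% lower. Of 10 factors that act on the Fos and Jun promoters, 0 were called higher and 1 lower with LPS in each genotype: Mrtfa, a coactivator of serum response factor, with ratios of 0.433 and 0.465. Mrtfb had 0.489 and 0.574, Mef2a 1.03 and 0.960, and Stat3 1.28 and 1.65. Of 11 turnover factors and coactivators of AP-1, 0 were called higher in each genotype. In each, 4 were called lower, where 17.2% of all genes tested were in WT and 15.1% in KO. These were Fbxw7, a ubiquitin ligase adaptor for Jun (0.265 and 0.295), Ncoa3 (0.296 and 0.305), Det1 and Ep300. Cop1, another ligase of Jun, was at 1.93 and 2.04, and Crebbp at 0.971 and 0.800.

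Downstream, 20 of 21 genes known as AP-1 targets passed the filter with LPS. Of these, 9 were called higher in each genotype, 2 lower in WT and 0 lower in KO. Over all genes tested, 6.41% were called higher and 17.2% lower in WT, and 6.61% and 15.1% in KO. The median log2 fold of the targets was 0.32 in WT and 0.69 in KO, beside -0.46 and -0.42 for all genes tested. Ptgs2, the inducible cyclooxygenase, went from 0.47 to 273 FPKM with LPS in WT and from 0.71 to 322 FPKM in KO. Il6, a cytokine gene that Atf3 is known to repress, had 1 expected count in WT NT. Its level after LPS was 132 FPKM for WT and 33.8 FPKM for KO. Its KO over WT ratio with LPS was 0.256 (0.218 to 0.299). The elastase gene Mmp12 was lower in KO without LPS (0.453, 0.428 to 0.478), and with LPS its ratio was 0.625. Ccnd1 and Vegfa had the lowest LPS ratios in WT, 0.454 and 0.382. Between genotypes, 1 target was called lower in each state, Mmp12 and Il6 in turn, and 0 higher. The shares of all genes tested were 0.883% lower and 0.928% higher without LPS, and 1.12% and 1.45% with LPS.

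Most other immediate early genes were higher with LPS, unlike Fos and Jun. Of 20, 19 passed with LPS, 11 called higher and 1 lower in WT and 12 higher and 2 lower in KO. Over all genes tested, 6.41% were called higher and 17.2% lower in WT, and 6.61% and 15.1% in KO. The medians of the list were 1.28 and 1.52 on the log2 scale, beside -0.46 and -0.42 for all genes tested. Socs3, a feedback inhibitor of cytokine signalling, went from 0.45 to 573 FPKM in WT and from 0.83 to 711 FPKM in KO, and the phosphatase gene Dusp2 from 0.76 to 149 FPKM and from 1.31 to 207 FPKM. Klf10 was lower like Fos, from 11.4 to 2.95 FPKM in WT and from 9.71 to 4.35 FPKM in KO. Klf2 went from 9.25 to 5.98 FPKM in WT and from 12.2 to 3.59 FPKM in KO, highest in KO NT and lowest in KO LPS as Fos was. Nr4a1, a nuclear receptor gene, was the 1 gene of the list called between genotypes (with LPS, 1.45% of all genes were called higher). It went from 1.53 to 1.89 FPKM in WT and from 1.74 to 6.17 FPKM in KO, with a KO over WT ratio with LPS of 3.26 (2.09 to 5.25). The libraries hold only the 2 h time, so the course of Fos and Jun before it was not measured.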

How the data were processed

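Total RNA of macrophage cultures was sequenced on an Illumina HiSeq, giving 4 libraries whose titles name their groups. The submitters' processing notes name RSEM, Bowtie and the mm10 genome. Their versions, the gene annotation and the use of strand were not given in the sources used here. The deposited expected counts are the authors' RSEM estimates of reads per gene, of which 78.7% to 79.4% per library were whole. The deposited FPKM values are the authors' expected counts per gene length and library size, so a large gain of some genes lowers all others. Those of the 9 genes had whole counts and 1 length in every library. A gene missing from a table was set to 0.

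Folds were log2 of (FPKM + 1) over (FPKM + 1), with a minimum of 1 FPKM in 1 library and calls at 2-fold over all genes. Ratios carry Clopper-Pearson intervals at the 95% level, from expected counts rounded to whole numbers. Intervals for the quotient of LPS responses and for shares came from the delta method, with at least 5 counts in each library for the former. Symbols, positions and upstream sequence came from RefSeq (GRCm38.p6), which matched 15897 of 15935 identifiers, and exon overlaps from GENCODE M21. Of 165 genes in 8 pathway and 5 marker lists, 163 were listed in a table.

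The members and lists were chosen with earlier results of these data known. Named were all 9 members and Ezh2. Of each list the rule named the 2 highest and 2 lowest genes for LPS in WT, of at least 50 expected counts, and any of that count 2-fold apart between genotypes. For each member it named the 3 genes most alike in profile. S100a8, Lyz2, Ly6g, Ccdc85b, Batf3, Creb5, Cebpb, Tef, Rps6ka1, Rps6ka5, Det1 and Ep300 were named after their values were seen. A gene that the rule names is not reported here. Alternatives were 0.1 or 5 FPKM added in place of 1, a minimum of 5 FPKM or none, median-ratio scaling, CPM, and rules of 1.5-fold and 3-fold. Scripts ran in Python 3.11.15 with scipy 1.17.1 and were tested on simulated counts.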

Additional observations from a re-analysis of the deposited data

Results flagged for a closer look

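For 2 genes the KO library lay above the WT library in one state and below it in the other, with counting intervals that left out 1 in both. Fos had a KO over WT ratio of 1.56 without LPS and 0.676 with LPS, so that its highest and lowest values were both in KO. Jund had 0.693 without LPS and 1.10 with LPS, and after median-ratio scaling the interval of the latter included 1 (0.966 to 1.15). With 1 library per group the difference between states was not tested against replicate spread.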

How the results depend on the processing

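The direction of every member that passed was unchanged in all 182 single-gene folds recomputed under the alternatives. A changed pseudocount or filter cannot reverse a direction, and CPM nearly repeats FPKM for genes of unchanged length. Median-ratio scaling was thus the only real check of direction. Beyond the counting interval, 18 of the folds moved, most of them LPS folds under median-ratio scaling. That scaling raised the LPS folds of Fos, Fosl2, Jun, Junb, Jund and Atf3 in both genotypes. On the log2 scale Jund in WT went from 0.354 to 0.825, and Atf3 in KO from 0.491 to 0.916. The counts of called genes also depended on the settings. With a pseudocount of 0.1 the genes called higher in KO with LPS numbered 2 in place of 1. With a pseudocount of 5 those called higher with LPS in KO numbered 3 in place of 5. Under the 1.5-fold rule 2 were called higher and 1 lower in KO with LPS, and 1 higher in KO without LPS. Under the 3-fold rule 3 were called higher with LPS in WT and 3 in KO, 1 lower with LPS in KO, and 0 higher in KO with LPS. The counts under no filter, a filter of 5 FPKM, median-ratio scaling and CPM stayed within 1.5 times those reported. Under median-ratio scaling and under CPM, 2 genes again differed by 2-fold or more in their LPS response between genotypes. No paired analysis was possible because each group has 1 library and the labels carry no replicate numbers, and for the same reason no replicate could be left out. Depth limits Fosb, Fosl1 and Batf, whose NT libraries held at most 17 counts each.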
